A study of Mus musculus with 8 samples.

Results

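The genes described here are 5 subunits of the transcription factor NF-kB (Nfkb1, Nfkb2, Rel, Rela and Relb) and 5 inhibitors or modulators that act on it or on its target messages (Nfkbia, Nfkbiz, Tnfaip3, Bcl3 and Zc3h12a). They were chosen by name, and all 10 have a row among the 35976 genes of the count table. Of the 10, 9 passed the filter on low counts, and Rel did not.

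The samples were preadipocytes, the precursors of fat cells, sorted from the stroma of inguinal white fat (iWAT) from high-fat-fed male mice. The sort kept cells that were PDGFRa+ and CD45-, CD31- and TER119-, which removes most immune, endothelial and red blood cells. Control mice (WT) had the genotype Tet3 f/f, that is floxed Tet3 alleles, and the others (KO) the genotype named Pdgfra-Tet3 KO. The driver of the deletion is not described further in the sources used here, nor are strain and age, and TET3 is an enzyme that oxidises 5-methylcytosine in DNA. For RNA-seq there were 3 libraries of each genotype, made after 6 weeks of feeding. Bisulfite sequencing covered 1 pool per genotype after 14 weeks and is not used for these genes. It is not stated whether each library is a different animal, so the p-values rest on a spread between libraries that may be technical.

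NF-kB acts as pairs of subunits that share a Rel homology region. In resting cells the inhibitor IkB-alpha, the product of Nfkbia, holds pairs such as RELA with p50 (from Nfkb1) in the cytoplasm. Receptors for TNF, interleukin-1 and microbial products activate the IKK kinases, which mark IkB-alpha for destruction and so free the subunits. NF-kB then switches on its own brakes, among them Nfkbia and Tnfaip3, and in fat stroma it is known for driving chemokines and cytokines.

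The DNA element that NF-kB binds, the kB motif, is shown here as it stands upstream of the members, since it is the element through which the feedback genes are known to respond. The form of the motif searched was GGGNNTTTCC on both strands, in the 250 bases before each annotated start, and it was chosen after the sequences were seen. Other forms of the kB motif were not searched. RefSeq promoter sequences (build GRCm38.p6) matched 7 of the 10 members by symbol, with 10 windows in all, and 5 windows of 4 members held the motif. Nfkbiz, Nfkb1 and Relb were not among those matched, so the sequences below do not bear on Nfkbiz, the member that passed the test. Of all 32851 windows, 1.41% held the motif. Because the form was chosen after the sequences were seen, the higher share among the members carries no weight. A match is a description of the letters and does not show that the site is bound. The 4 stretches below are 100 bases each, read 5′ to 3′ on the strand of the gene, with the match in capitals. That of Nfkbia lies at chr12:55492648-55492747 (minus strand), that of Tnfaip3 at chr10:19015411-19015510 (minus strand), that of Rel at chr11:23771006-23771105 (minus strand) and that of Nfkb2 at chr19:46305680-46305779 (plus strand).
Nfkbia: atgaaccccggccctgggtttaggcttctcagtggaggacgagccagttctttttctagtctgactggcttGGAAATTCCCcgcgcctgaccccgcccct
Tnfaip3: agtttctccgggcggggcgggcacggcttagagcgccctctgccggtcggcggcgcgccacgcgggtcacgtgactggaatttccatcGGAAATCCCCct
Rel: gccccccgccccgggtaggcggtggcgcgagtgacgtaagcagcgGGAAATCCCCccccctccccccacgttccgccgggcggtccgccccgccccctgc
Nfkb2: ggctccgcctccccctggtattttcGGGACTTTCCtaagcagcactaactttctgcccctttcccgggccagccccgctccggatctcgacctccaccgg
Upstream of Nfkbia, Tnfaip3 and Rel the motif lies on the other strand and so reads GGAAANNCCC. The match begins 29 bases before the start in Nfkbia, 12 in Tnfaip3, 91 in Rel and 225 in Nfkb2. Nfkb2 has a further match before another of its starts, and the windows of Rela, Bcl3 and Zc3h12a held none of these letters, which says nothing of binding elsewhere.

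The libraries held between 1831218 and 2374978 counts. Levels are given as CPM, read counts per 1000000 counts of the effective size of each library, and 3 counts are worth 1.27 to 1.65 CPM. For Tet3, the targeted gene, the WT counts were 93, 127 and 104 and the KO counts 76, 87 and 79, so every KO count was below every WT count. Scaled for library size, the groups overlapped narrowly, at 44.2 to 53.8 CPM in WT and 39.0 to 44.5 CPM in KO, and the difference did not pass the test (log2 fold change -0.24 ± 0.24 SE, edgeR adjusted p = 0.710). The sort marker Pdgfra stood at 619 to 666 CPM in WT and 407 to 482 in KO, and Dcn, which encodes the stromal proteoglycan decorin, at 16530 to 17835 CPM in all 6. Of the 10 preadipocyte markers 4 rose (Cd34, Ly6a, Col1a1 and Pi16) and Pdgfra fell by 0.52 on the log2 scale. That is 50% called at an edgeR adjusted p under 0.05, against 3.59% of all tested genes. Of the 10 macrophage markers 4 were at 0 in all libraries, among them Ptprc, which encodes CD45, and the summed level of the 10 was 2.12 to 6.45 CPM in WT and 4.60 to 9.35 in KO. All 8 lymphocyte markers were at 0, and Pecam1, which encodes CD31, had at most 6 counts. The 8 endothelial markers summed to 136 to 153 CPM in WT and 140 to 173 CPM in KO, nearly all of it Tek, and the 5 adipocyte markers to at most 0.951 CPM. Gapdh, which most cells express highly, also had 0 or 1 counts, so a count of 0 does not by itself show absence. The sum of 5 erythroid markers was 1.69 to 7.13 CPM in WT and 151, 0 and 39.1 CPM in KO, so that KO libraries 1 and 3 were above every WT library and KO library 2 held no such counts. Fewer cells of a type and less RNA per cell cannot be told apart in these bulk samples.

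Of the members, Nfkbiz alone passed the test. It encodes IkB-zeta, a nuclear protein with ankyrin repeats that is itself induced through NF-kB and is needed with it for a subset of its targets such as Il6. In the order of library number, its level was 366, 389 and 340 CPM in WT against 658, 553 and 575 CPM in KO. Every KO library lay above every WT library, and KO library 1 was the highest. The mean rose from 365 ± 24.7 to 595 ± 55.6 CPM (SD, n = 3 each), a fold of 1.63 with an approximate 95% interval of 1.37 to 1.93. The log2 fold change was 0.71 ± 0.12 (SE), with an adjusted p of 0.000327 in edgeR's quasi-likelihood test with Benjamini-Hochberg adjustment over all 9943 tested genes. By p it ranked 65 among them. Without KO library 1, which had the most erythroid counts, the log2 fold change was 0.63 and the adjusted p 0.000937. KO library 2, with 0 erythroid counts, was also above every WT library. The part of erythroid RNA in the difference was not tested further. The call held in each of the 6 fits that left out 1 library, with an adjusted p of at most 0.0108.

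Over the 9 tested members the count was therefore 1 higher, 0 lower and 8 not passing, that is 11.1% called. Of all tested genes, 1.82% were called higher, 1.77% lower and 3.59% in either direction. With so few members the share rests on Nfkbiz alone. The median log2 fold change was 0.0039 over the 9 members and -0.0024 over all tested genes. The groups were separate in 1 of the 9 members, as they were in 20.4% of all tested genes.

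**Figure D1:**
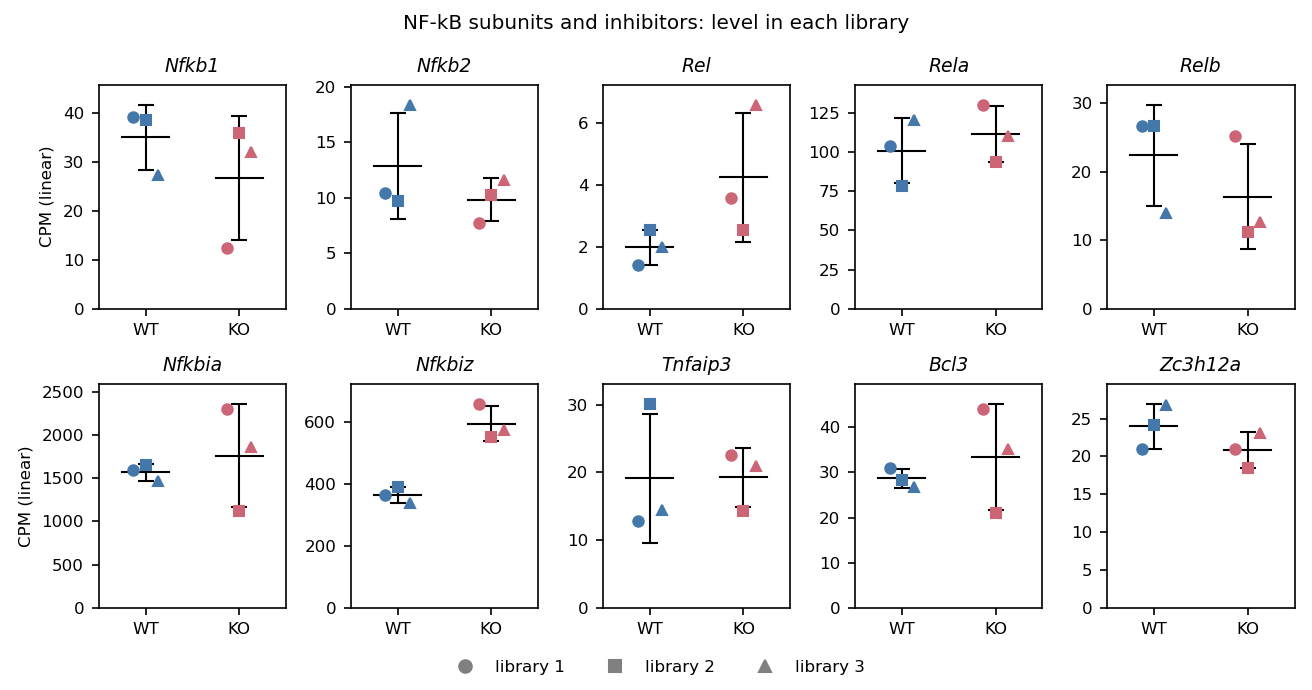
Level of each of the 10 genes in the 3 WT and 3 KO libraries, in CPM on linear axes that start at 0 and differ between genes. Points are libraries, long bars the group means and error bars 1 SD (n = 3). The KO libraries of Nfkbiz, at 553 to 658 CPM, lie above its WT libraries at 340 to 389 CPM, while Nfkbia spreads from 1121 to 2300.1 CPM within KO.

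Among the subunits, Rela encodes RELA (p65), the main activating subunit of the canonical pathway. It stood at 104, 78.7 and 121 CPM in WT and 130, 94.1 and 111 CPM in KO. The groups overlapped, and the fold of KO over WT was 1.11 with an approximate 95% interval of 0.850 to 1.44 (edgeR adjusted p = 0.789).

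Nfkb1 encodes p105, the precursor of p50, the usual partner of RELA. Its level was 39.0, 38.5 and 27.3 CPM in WT and 12.3, 35.8 and 31.9 CPM in KO. KO library 1, with 24 counts against 55 to 91 in the other WT and KO libraries, was far below the rest, and KO libraries 2 and 3 lay within the WT range. The log2 fold change was -0.39 ± 0.33 (SE, edgeR adjusted p = 0.638), and -0.047 without KO library 1. KO library 1 was thus the lowest library for Nfkb1, as it was for Nfkb2, and the highest for Nfkbiz, Nfkbia, Bcl3 and Rela.

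Relb and Nfkb2 belong to the non-canonical arm, in which RELB pairs with p52, the product of Nfkb2. Relb stood at 26.6, 26.7 and 13.9 CPM in WT and 25.1, 11.2 and 12.7 CPM in KO. Both genotypes held high and low libraries, so the groups overlapped (log2 fold change -0.45 ± 0.40 SE, edgeR adjusted p = 0.656). Nfkb2 was at 10.5, 9.74 and 18.4 CPM in WT and 7.70, 10.2 and 11.6 CPM in KO. Only WT library 3 stood above the others, and the fold was 0.767 with an approximate 95% interval of 0.383 to 1.54 (edgeR adjusted p = 0.789).

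Rel encodes c-REL, the subunit best known from lymphocytes. Its counts were 3, 6 and 4 in WT against 7, 5 and 12 in KO. KO library 3, at 12, was the highest and the others held 3 to 7. Rel did not pass the filter and so was not part of the main test. Intervals for all 4 tested subunits include no change but are wide: for Relb the approximate 95% interval of the fold ran from 0.416 to 1.28, and for Nfkb1 from 0.478 to 1.21.

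Nfkbia encodes IkB-alpha, the cytoplasmic inhibitor that NF-kB resynthesises after each activation. Its level was 1591, 1654 and 1464 CPM in WT and 2300.1, 1121 and 1862 CPM in KO. The WT libraries were close together, whereas in KO libraries 1 and 3 lay above every WT library and KO library 2 below every WT library. The means were 1570 ± 97.0 and 1761 ± 596 CPM (SD, n = 3), and the fold was 1.12 with an approximate 95% interval of 0.912 to 1.38 (edgeR adjusted p = 0.660). That interval rests on a spread shared by both groups and moderated across genes. It may be too narrow for Nfkbia, whose KO libraries differed widely. In DESeq2 the log2 fold change was 0.17 with an unadjusted p of 0.577 and an adjusted p of 0.880. The edgeR result depended on KO libraries 1 and 2 alike. Without KO library 2 the log2 fold change was 0.40 and the edgeR adjusted p 0.0269. Without KO library 1 the log2 fold change was -0.074, with an edgeR adjusted p of 0.865.

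Bcl3 encodes a nuclear relative of the IkB proteins that binds p50 and p52 dimers. It stood at 30.9, 28.4 and 26.8 CPM in WT and 44.1, 21.0 and 35.2 CPM in KO. The order of the KO libraries was that of Nfkbia, with library 1 the highest of the 6 and library 2 the lowest. Its log2 fold change was 0.22 ± 0.30 (SE, edgeR adjusted p = 0.808), and -0.034 without KO library 1. Of the 36 pairs of tested members, Nfkbia and Bcl3 were the most alike across the 6 libraries. After each gene was centred at its own mean, their log2 CPM differed by a root mean square of 0.057, against 0.27 for the next pair, Rela and Bcl3. This likeness was noticed in the data and is given as a description. Bcl3 had only 41 to 86 counts per library, and the part of counting error in this closeness was not tested.

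Tnfaip3 encodes A20, an enzyme that edits ubiquitin chains and switches off signalling from TNF and Toll-like receptors. Its level was 12.8, 30.1 and 14.4 CPM in WT and 22.6, 14.3 and 20.9 CPM in KO. WT library 2 was the highest of all and WT library 1 the lowest, so the KO libraries lay inside the WT range. The WT mean was 19.1 ± 9.52 CPM and the KO mean 19.3 ± 4.37 CPM (SD, n = 3), and the approximate 95% interval of the fold was 0.573 to 1.76 (edgeR adjusted p = 0.998).

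Zc3h12a encodes Regnase-1, a ribonuclease that degrades messages of inflammatory genes, Il6 and Nfkbiz among them. It was at 20.9, 24.1 and 26.8 CPM in WT and 21.0, 18.4 and 23.1 CPM in KO. The groups overlapped, and the fold was 0.870 with an approximate 95% interval of 0.542 to 1.40 (edgeR adjusted p = 0.846).

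Because Nfkbia and Nfkbiz had the most counts of the 10 genes, their ratio could be followed in each library. The ratio was chosen after the values were seen. Its size depends on gene length, but its change between libraries does not. In WT, Nfkbiz counts were 0.2298, 0.2354 and 0.2323 of the Nfkbia counts, and in KO 0.286, 0.494 and 0.309. The KO ratio was higher in every library, with a mean of 0.363 ± 0.114 against 0.233 ± 0.0028 (SD, n = 3). KO library 2 had the highest ratio, because its Nfkbia count was the lowest of the 6 while its Nfkbiz count was above every WT library. Nfkbiz was 2.82 to 4.95 times Rela in WT and 5.05 to 5.88 times Rela in KO. For Nfkbia over Rela and for Relb over Rela the groups overlapped. Since Nfkbiz is the member that rose, its ratios restate that change and are given as descriptions, with no test.

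**Figure D2:**
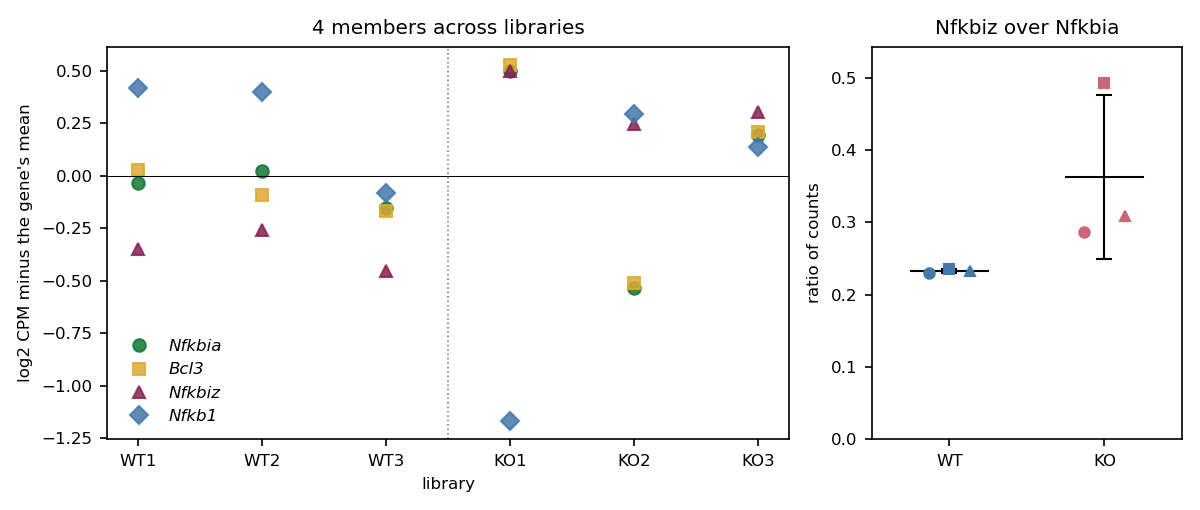
Left, log2 CPM of Nfkbia, Bcl3, Nfkbiz and Nfkb1 in each library minus the gene's mean over the 6 libraries. Right, the ratio of Nfkbiz to Nfkbia counts per library, with the group mean (long bar) and 1 SD (n = 3). Nfkbia and Bcl3 nearly coincide in all libraries, Nfkb1 is lowest in KO library 1, and the ratio is 0.2298 to 0.2354 in WT and 0.286 to 0.494 in KO.

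The genes whose pattern over the 6 libraries was nearest to that of Nfkbiz were Id3, Ugdh, Lgals3bp, Cdkn1a and Gda, out of 9103 candidates whose log2 CPM averaged 3 or more. Their centred log2 CPM differed from that of Nfkbiz by a root mean square of 0.070 to 0.087. The choice by pattern itself fixes that they were higher in KO, and their log2 fold changes, from 0.61 for Gda to 0.79 for Ugdh, are given as a description. Id3 encodes an inhibitor of helix-loop-helix factors, Ugdh an enzyme that makes UDP-glucuronate, Lgals3bp a secreted glycoprotein that binds galectin-3, Cdkn1a the cell cycle inhibitor p21 and Gda guanine deaminase.

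The rest of the pathway was read from 5 lists, chosen with earlier results of these data known, so their shares of calls are descriptions. The lists hold 91 genes, all of which have a row in the table and 74 of which were tested. Of these 74, 5 rose, 1 fell and 68 did not pass, which is 8.11% called against 3.59% of all tested genes, and all 6 were among the target genes. The signalling lists held none. Of 21 tested receptors and adaptors, 11 kinases and their partners, 12 other inhibitors and 10 genes of message decay, 0 passed by edgeR, DESeq2 or limma-voom. At an unadjusted p under 0.05, edgeR had 5 receptors and adaptors higher and 0 lower, 0 kinases higher and 1 lower, 1 inhibitor higher and 2 lower, and 2 decay genes higher and 0 lower, where 15.5% of all tested genes reached that p in either direction.

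No receptor that starts the pathway passed the test. Tnfrsf1a, the main TNF receptor, was at 291 to 353 CPM in WT and 272 to 323 CPM in KO. Il1r1, the signalling receptor for interleukin-1, was at 218 to 265 CPM in WT and 206 to 239 CPM in KO, so the groups overlapped for both. Tlr4, the receptor for bacterial lipopolysaccharide, was at 123 to 141 CPM in WT and 143 to 161 CPM in KO, separate groups whose fold did not pass (log2 fold change 0.15 ± 0.16 SE, edgeR adjusted p = 0.719).

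The 5 receptors and adaptors at an unadjusted p under 0.05 were Tlr2, Birc2, Birc3, Traf3 and Irak3, and in each of them every KO library lay above every WT library. The choice by p itself favours such separation, so it adds no support. Groups were separate in 7 of the 21 tested receptors and adaptors and in 20.4% of all tested genes. Tlr2, the receptor for bacterial lipoproteins, was at 16.2, 18.2 and 7.94 CPM in WT and 39.0, 23.5 and 27.0 CPM in KO. Its fold of 2.10, with an approximate 95% interval of 1.24 to 3.55, did not pass (edgeR adjusted p = 0.114). Birc2 and Birc3 encode the ubiquitin ligases cIAP1 and cIAP2, Traf3 an adaptor that restrains the non-canonical arm, and Irak3 an inhibitor of signalling from Toll-like receptors. Their folds were 1.63, 1.81, 1.53 and 1.34, with edgeR adjusted p of 0.101, 0.244, 0.241 and 0.277.

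Of the IKK complex, Ikbkb and Ikbkg encode a catalytic subunit and the scaffold (NEMO) of the canonical pathway. Ikbkb was at 53.6 to 59.3 CPM in WT and 48.4 to 56.5 CPM in KO, and Ikbkg at 10.9 to 17.8 and 15.4 to 20.5 CPM. Chuk encodes IKK-alpha, which also belongs to this complex and is the kinase of the non-canonical pathway. It was counted 58, 117 and 67 times in WT against 40, 51 and 39 times in KO. Each KO library was below each WT library, but the log2 fold change of -0.70 ± 0.31 (SE) did not pass (edgeR adjusted p = 0.253). Map3k7, which encodes the kinase TAK1 upstream of IKK, and its partner Tab2 had log2 fold changes of 0.031 ± 0.21 and -0.019 ± 0.16 (SE).

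Among the other inhibitors, Nfkbie encodes IkB-epsilon and was counted 15, 26 and 16 times in WT against 1, 9 and 10 times in KO. The groups were separate, but at these counts the log2 fold change of -1.29 ± 0.71 (SE) did not pass (edgeR adjusted p = 0.402). Nfkbib, which encodes IkB-beta, overlapped at 7.13 to 14.9 CPM in WT and 11.0 to 19.9 CPM in KO. Tnip1 encodes a partner of A20 and was at 43.6 to 50.9 CPM in WT and 52.9 to 55.2 CPM in KO, separate groups whose fold did not pass (log2 fold change 0.20 ± 0.23 SE, edgeR adjusted p = 0.749). Cyld, a deubiquitinase, was at 86.8 to 118 CPM in WT and 88.8 to 122 CPM in KO. Tax1bp1, an adaptor of A20, was at 278 to 298 CPM in WT and 289 to 322 CPM in KO. Of the decay genes, Zfp36 and Zfp36l1, which encode proteins that bind AU-rich messages and speed their decay, had folds of 1.09 and 1.04. The approximate 95% intervals were 0.912 to 1.31 and 0.888 to 1.22. The decay genes at an unadjusted p under 0.05 had few counts. Arid5a encodes a protein that binds and stabilises messages such as Il6, and was counted 8, 12 and 22 times in WT against 49, 27 and 22 times in KO. Scaled for library size its groups were separate, and the fold was 2.58 with an approximate 95% interval of 1.24 to 5.39 (edgeR adjusted p = 0.163). Malt1, a protease that cleaves Regnase-1, was counted 1, 12 and 1 times in WT against 21, 7 and 15 times in KO. Its groups overlapped, and the log2 fold change was 1.82 ± 0.82 (SE, edgeR adjusted p = 0.274). Of the other inhibitors at that p, Pdlim2 and Tnip2 had folds of 0.706 and 0.542 and N4bp1 a fold of 1.42, with edgeR adjusted p of 0.241, 0.323 and 0.303.

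**Figure D3:**
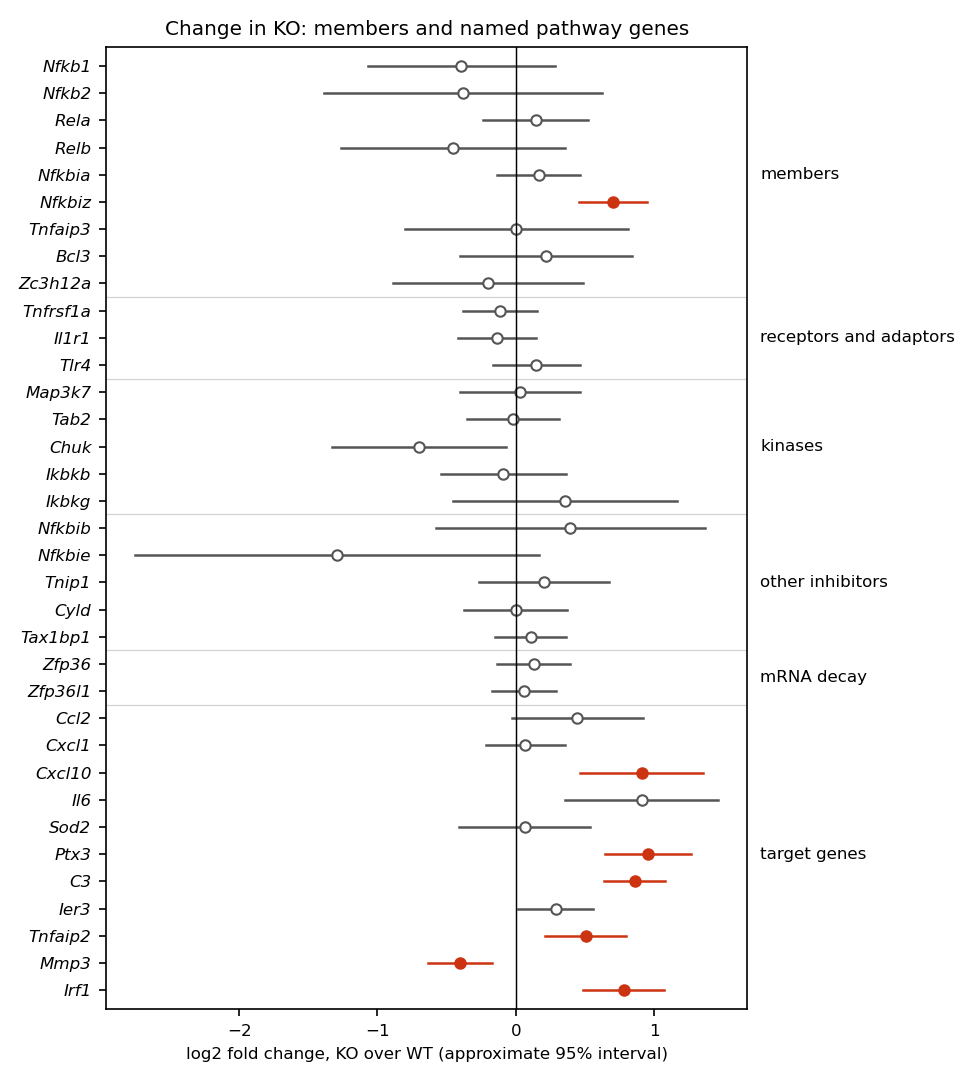
Log2 fold change of KO over WT with its approximate 95% interval for the 9 tested members and the named genes of the 5 pathway lists. Filled red points passed an adjusted p of 0.05 over all tested genes, and open grey points did not. Nfkbiz, at 0.71, is the filled point among the members, and the other filled points, 5 to the right of 0 and Mmp3 at -0.40, are all target genes.

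Target genes of NF-kB are where calls were found, in 6 of 20 tested (30% against 3.59% of all tested genes), and their median log2 fold change was 0.32. Groups were separate, in either direction, in 9 of the 20 tested targets and in 20.4% of all tested genes. This list was chosen with earlier results of these data known, so both shares are descriptions and not independent support. Complement C3, the central protein of the complement cascade, was at 2446, 2148 and 2676 CPM in WT and 5143, 3662 and 4397 CPM in KO. Ptx3, a soluble pattern recognition protein, was at 216, 196 and 230 CPM in WT and 536, 311 and 396 CPM in KO. Irf1, a transcription factor shared with the interferon response, was at 257, 229 and 273 CPM in WT and 549, 365 and 389 CPM in KO. In these 3 genes every KO library lay above every WT library, and each kept its call in all 6 fits that left out 1 library, with an edgeR adjusted p of at most 0.00539 for Ptx3, 0.000511 for C3 and 0.0147 for Irf1.

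The other called targets were less firm. Cxcl10, a chemokine for T cells that interferon also induces, rose from 54.3 ± 8.47 to 102 ± 31.8 CPM (SD, n = 3), but its edgeR adjusted p was 0.176 without KO library 1, and the call was also lost without WT library 1 or WT library 3. Tnfaip2, a gene first known as induced by TNF, rose from 264 ± 27.4 to 375 ± 80.4 CPM (SD, n = 3). Mmp3, a matrix metalloproteinase (stromelysin), fell from 1581 ± 104 to 1198 ± 211 CPM (SD, n = 3), against the direction of the other 5. The Tnfaip2 call held only when KO library 2 was left out and that of Mmp3 only when KO library 1 was left out, with an edgeR adjusted p of up to 0.226 and 0.233 in the other fits.

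Il6, a cytokine known to depend on IkB-zeta and to be degraded by Regnase-1, was at 22.3, 46.1 and 24.8 CPM in WT and 63.6, 56.8 and 56.1 CPM in KO. Each KO library was above each WT library. The log2 fold change of 0.91 ± 0.27 (SE) missed the threshold in edgeR (adjusted p = 0.0563). Il6 also missed it in DESeq2 (adjusted p = 0.0722) and passed it in limma-voom (adjusted p = 0.0416). Ccl2, a chemokine for monocytes, was at 83.7, 130 and 65.5 CPM in WT and 187, 89.0 and 105 CPM in KO, with overlapping groups (log2 fold change 0.45 ± 0.23 SE, edgeR adjusted p = 0.363). Cxcl1, a chemokine for neutrophils, and Sod2, which encodes mitochondrial superoxide dismutase, had log2 fold changes of 0.069 ± 0.14 and 0.067 ± 0.23 (SE). Ier3, an early response gene, was at 242 to 259 CPM in WT and 279 to 343 CPM in KO, separate groups whose log2 fold change of 0.29 ± 0.13 (SE) did not pass (edgeR adjusted p = 0.279). Some targets lay the other way. Of the 20 tested, 6 had a log2 fold change below 0. Cx3cl1, which encodes the chemokine fractalkine, was counted 11, 14 and 10 times in WT against 6, 0 and 0 times in KO (log2 fold change -2.30 ± 0.98 SE, edgeR adjusted p = 0.230). Saa3, an acute phase protein, was counted 21, 20 and 9 times in WT against 6, 2 and 0 times in KO, so that each KO count was below each WT count, and it did not pass the filter. The 9 targets that were not tested also include Tnf, with at most 5 counts, and Il1b, Ccl20 and Cd83, which had 0 counts in every library.

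The summed level of the 29 targets was 6644, 6687 and 6616 CPM in WT and 10590.2, 7702 and 8729 CPM in KO. Without C3 the sum was 4198, 4539 and 3939 CPM in WT and 5447, 4040 and 4332 CPM in KO. KO libraries 2 and 3 then lay inside the WT range. That sum still held Mmp3, which fell, at 1469 to 1675 CPM in WT and 1013 to 1428 CPM in KO. It therefore joins targets that moved in opposite directions and cannot show whether the targets other than C3 differ as a group. KO library 1, which had the highest sum, also had the most erythroid counts, followed by KO library 3, and its part in the level of Cxcl10 and Tnfaip2 beyond the fits without it was not tested. Genes induced by cell isolation, which also respond within minutes to stress, summed to 15367 to 16239 CPM in WT and 14868 to 15344 CPM in KO. Of those 12 genes, Jund rose, with a log2 fold change of 0.50 ± 0.12 (SE, edgeR adjusted p = 0.0122), and the heat shock genes Hspa1a and Hspa1b fell by 0.70 and 1.05 on the log2 scale, so the sum joins genes that moved in opposite directions. Their part in the level of Nfkbiz was not tested.

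**Figure D4:**
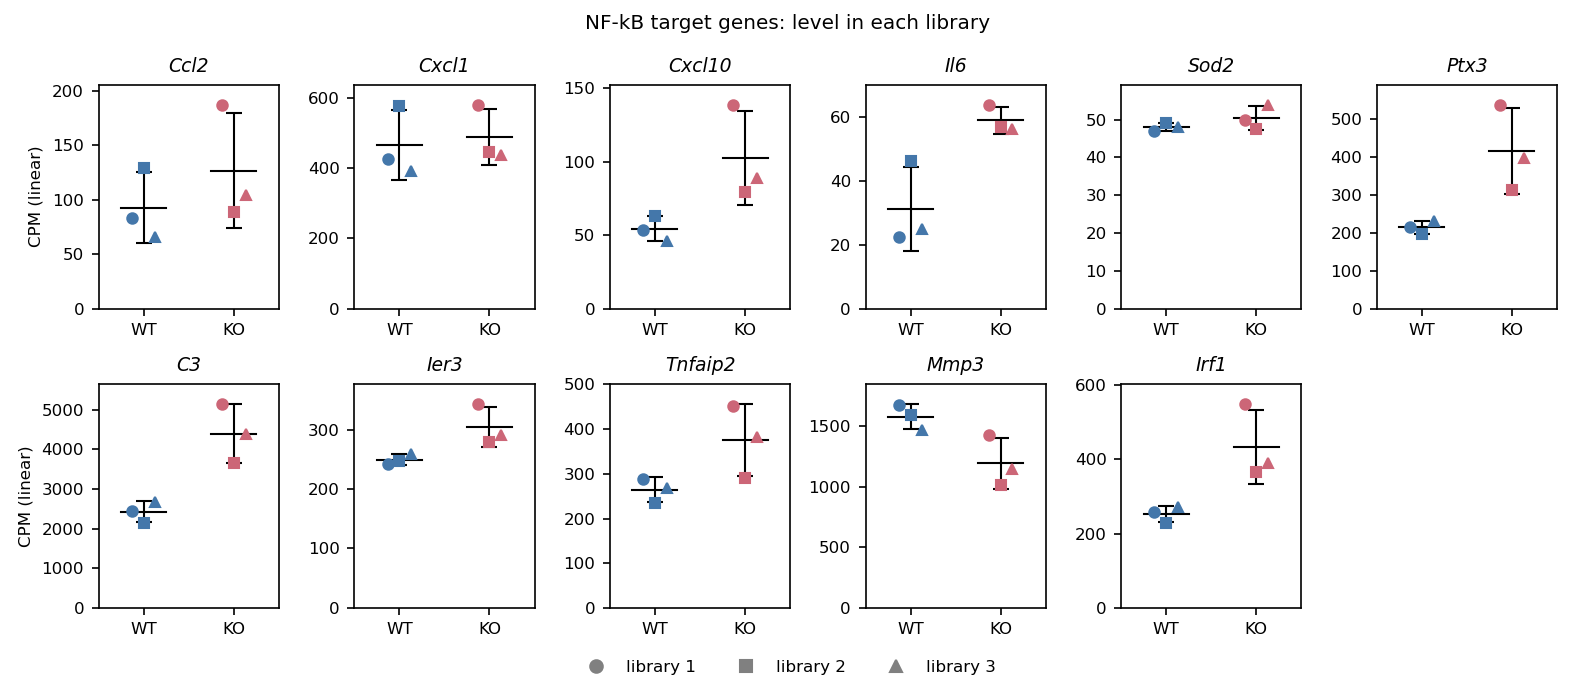
Level of the 11 named target genes in the 3 WT and 3 KO libraries, in CPM on linear axes that start at 0 and differ between genes. Points are libraries, long bars the group means and error bars 1 SD (n = 3). C3, Ptx3, Irf1, Cxcl10, Tnfaip2, Il6 and Ier3 have every KO library above every WT library, and Mmp3 has every KO library below, at 1013 to 1428 against 1469 to 1675 CPM. All called targets are among the panels, so these do not stand for the 20 tested targets, of which 9 had separate groups.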

How the data were processed

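Per the labels' protocols, RNA of sorted cells was selected by poly(A). HISAT2 2.2.1, HTSeq 0.9.1 and Trim Galore 0.6.6 are among the tools in the submitters' processing notes, with no role for each. The deposited RNA table holds raw counts per gene symbol, without normalization. The sources used here do not state whether counting used strand, so overlapping genes may share reads.

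The filterByExpr step (minimum count 10, minimum total 15) kept 9943 genes. The main test was that of edgeR 4.0.16 under R 4.3.3 (TMM, quasi-likelihood, KO against WT, Benjamini-Hochberg at 0.05). The SE is the log2 fold change divided by the root of its F statistic, and 95% intervals built on it are approximate. Floors cover counting error only. Alternatives were DESeq2 1.42.0, limma-voom (limma 3.58.1), other factors and filters, a replicate block and leaving out each library. On simulated data for KO against WT over 9943 genes, the fit called 42% of 100 genes changed 2-fold and 82% of 100 changed 4-fold, and 8 of its 132 calls were unchanged genes. Libraries of a genotype differed beyond counting noise (chi-square of 4.05 to 7.13 per degree of freedom), so none were merged.

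The members, lists and tests were chosen with earlier results of these data known. All members are named, and from each list those called, the 2 other genes of highest level and 12 genes fixed by name. Other genes named in the text are markers or were named after their values were seen. Of the deposited regions of differential methylation, 10 region ends fell inside GRCm38 promoter windows and 0 of these lay on a CpG of that build, so regions were not placed near genes. The 2 columns of mean methylation in that table were not assigned to the pools and were not used.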

Additional observations from a re-analysis of the deposited data

How the results depend on the processing

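Nfkbiz kept its direction and its call in all 13 alternatives, with log2 fold changes from 0.63 to 0.75 and an adjusted p of at most 0.0108. Of the other 8 tested members, Nfkb1, Nfkb2, Relb and Zc3h12a kept their sign without a call in the 13 alternatives. Leaving out 1 library at a time, the log2 fold change ran from -0.074 to 0.40 for Nfkbia, from -0.012 to 0.28 for Rela, from -0.034 to 0.46 for Bcl3 and from -0.22 to 0.49 for Tnfaip3. Tnfaip3 was also at -0.011 with upper quartile factors and at -0.013 with at least 20 counts in 3 libraries, so it has no stable sign. Without a filter, edgeR gave Rel 1.08 ± 1.07 (log2 fold change and SE) at an adjusted p of 0.732. The number of called members was 1 in all alternatives except without KO library 2, where Nfkbia made it 2, so that it ran from 1 to 2. Over single libraries left out, called pathway genes ran from 3 to 7 around 6, with 3 without WT library 1 and 3 without WT library 3. All called genes ran from 158 to 370 around 357, those higher in KO from 82 to 182 around 181 and those lower from 76 to 188 around 176. The cause was not tested.

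With the library number as a replicate block, edgeR called 501 genes, 1 member (Nfkbiz) and 9 pathway genes, adding Il6, Cxcl2 and Ptgs2. Libraries of the same number did not deviate together over all tested genes (r = 0.020, 0.017 and -0.00024). Counting error in genes with few counts weakens such an r, so it cannot exclude pairing. The labels state no pairs, so the numbers were not taken as pairs. At these depths Rel, Nfkb2 and Nfkbie rest on few reads. The intervals of Nfkb2 and Nfkbie are wide, so sizeable changes in them may have gone uncalled. Rel has no interval in the main test.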
